A study of Mus musculus with 3 samples.

Results

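Simple repeats are runs of a short unit of bases copied head to tail, and repeat annotation names each one by its unit, as in (CA)n. They were studied here in RNA that came down with 2 antibodies from mouse hippocampus. Every repeat name written as a unit in brackets followed by n was taken, which gave 17181 of the 18484 names listed. The names were grouped by the length of the unit (1 to 6 bases, and 7 or more) and by whether purines (A, G) and pyrimidines (C, T) alternate through the whole run, junctions between copies included. Only a unit of even length can do so, and 557 names (3.24%) did.

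The mice were C57BL/6 and 9 months old. Those of the PS19 genotype express mutant human tau from a transgene under the mouse prion promoter and develop tau pathology. For PS19 there was a library precipitated with anti-ZBP1 and another precipitated with an antibody to Z-form nucleic acid (ZNA), and for wild-type (WT) mice a library with the ZNA antibody. Each group had 1 library, so there is no replicate error, no test of genotype or antibody was possible, and every interval covers counting error only. How many mice went into a library is not given in the sources used here, and no input or isotype-control library was analysed here.

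Z-DNA and Z-RNA are left-handed double helices in which purines take the syn and pyrimidines the anti form in turn, so runs that alternate purine and pyrimidine adopt them most readily. Alternating CG is known to turn most easily, alternating CA paired with TG less so, and alternating AT least. ZBP1 binds this form through its Z-alpha domains and can start inflammatory cell death, and ADAR1 carries a domain of the same kind. CA/TG runs are among the most common dinucleotide repeats of mammalian genomes.

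The 10 units with most reads, and (GCC)n, shown for its composition, are written below as runs of at least 12 bases, built from the unit in each name, with purines in capitals so that alternation can be read off the letters. The first 4 are the alternating dinucleotides with reads, all of them 1 double-stranded sequence in another phase or on the other strand.
Repeat (CA)n: cAcAcAcAcAcA
Repeat (AC)n: AcAcAcAcAcAc
Repeat (TG)n: tGtGtGtGtGtG
Repeat (GT)n: GtGtGtGtGtGt
The next 4 are trinucleotides made only of G and C, which break the pattern once in every copy.
Repeat (GGC)n: GGcGGcGGcGGc
Repeat (CGC)n: cGccGccGccGc
Repeat (CGG)n: cGGcGGcGGcGG
Repeat (GCC)n: GccGccGccGcc
The last 3 are the other names among the 10 with most reads, and none of them alternates.
Repeat (GAGGCA)n: GAGGcAGAGGcA
Repeat (TAGA)n: tAGAtAGAtAGA
Repeat (CCAT)n: ccAtccAtccAt

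Simple repeats were a small part of each library. They held 409 reads of the ZBP1 pull-down, 1010 of the ZNA pull-down in PS19 and 455 of that in WT. Of all reads on repeat names (1425383, 2918985 and 3234786) these were 0.0287% (95% exact binomial interval 0.0260 to 0.0316%), 0.0346% (0.0325 to 0.0368%) and 0.0141% (0.0128 to 0.0154%). Ribosomal RNA names took 94.8%, 89.4% and 95.5% of the same libraries, so the order depends on the denominator. Among the reads outside rRNA, the simple-repeat share was 0.549% (0.497 to 0.605%) for ZBP1, 0.327% (0.307 to 0.348%) for PS19 ZNA and 0.313% (0.285 to 0.343%) for WT ZNA. On that scale the share in the ZBP1 library was 1.68-fold that of the PS19 ZNA library (95% exact conditional interval 1.49 to 1.88), and the PS19 and WT ZNA libraries stood at a ratio of 1.05 (0.935 to 1.17). The files hold no gene names to check the tissue by; BC1, an RNA of neurons, had 33, 146 and 77 reads.

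Most names were never seen. Of the 17181, 16833 had no read in any library, 348 had at least 1, and 55 had reads in every library; 202 were found in a single library. The ZBP1, PS19 ZNA and WT ZNA libraries held reads on 143, 248 and 158 names, and 86, 99 and 71 of these rested on 1 read. Over all 18484 repeat names, 1103, 1324 and 1147 had reads in these libraries. The libraries also differ in depth, with 409, 1010 and 455 simple-repeat reads. Detection in a single library was not set against that depth or against all names. The files list 12866 names (74.9%) with units of 7 or more bases, yet 61 of them had reads. Reads were thus concentrated in short units. One read was 0.244%, 0.0990% and 0.220% of the simple-repeat reads of the 3 libraries, in the order above, and a count of 0 allows shares of up to 0.733%, 0.297% and 0.659%, set at 3 reads, which is below the upper ends of the two-sided exact intervals for 0 reads (0.898%, 0.365% and 0.807%).

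Dinucleotide units held the highest share of simple-repeat reads in each library. They took 35.7% of the reads for ZBP1 (146 reads, 31.0 to 40.6%), 29.4% for PS19 ZNA (297 reads, 26.6 to 32.3%) and 23.7% for WT ZNA (108 reads, 19.9 to 27.9%). The intervals of the ZBP1 and WT ZNA libraries do not overlap, and that of the PS19 ZNA library overlaps both. In WT ZNA the lead of the dinucleotides was small. Units of 3, 4 and 6 bases held 102, 98 and 92 reads there, and their intervals overlap that of the dinucleotides.

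Trinucleotides went another way. They took 22.5% (92 reads), 15.0% (152 reads) and 22.4% (102 reads), lowest in PS19 ZNA, at 0.671 of the WT ZNA share (0.519 to 0.871). The ZBP1 share was 1.49-fold that of the PS19 ZNA library (1.14 to 1.95). Tetranucleotides took 14.9% (61 reads), 23.3% (235 reads) and 21.5% (98 reads), and hexanucleotides 13.4% (55 reads), 19.9% (201 reads) and 20.2% (92 reads). Both lengths were lower in the ZBP1 library, at 0.641 (0.475 to 0.853) and 0.676 (0.492 to 0.915) of the PS19 ZNA share, and the PS19 ZNA shares stood at 1.08 (0.850 to 1.38) and 0.984 (0.765 to 1.27) of the WT ZNA shares. Per reads outside rRNA the direction turned for these lengths, at 1.08-fold (0.798 to 1.43) and 1.13-fold (0.826 to 1.53), with intervals that include no difference, so the lower shares hold for the composition of the simple-repeat reads alone. Per all reads every length with reads was higher in PS19 than in WT ZNA, from 1.65-fold for trinucleotides (1.28 to 2.14) to 3.05-fold for dinucleotides (2.44 to 3.83). As log2 ratios these ends are 0.72 and 1.61. The median over the 713 repeat names of any kind compared singly below was 1.24 on this scale, so a higher value is not particular to simple repeats. Pentanucleotides took 7.09%, 5.54% and 6.37%, and units of 7 or more bases 6.36%, 6.83% and 5.71%, with overlapping intervals in all 3 libraries. The 4 mononucleotide names, (A)n, (C)n, (G)n and (T)n, had 0 reads in each library.

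**Figure D1:**
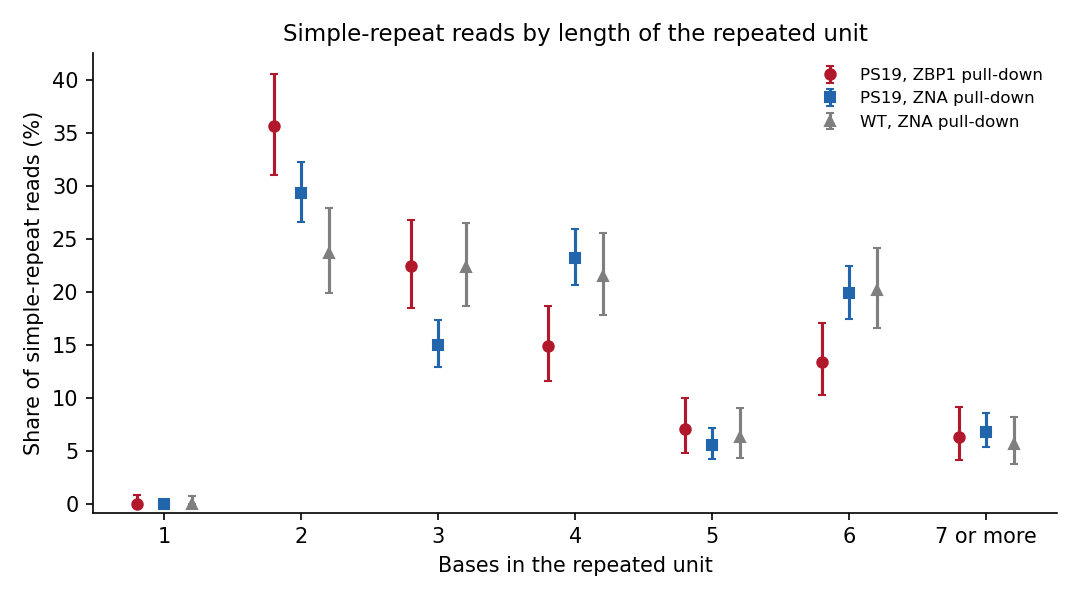
Share of simple-repeat reads (%) by number of bases in the repeated unit, one point per library with its 95% exact binomial interval (counting error only). Units of 2 bases run from 23.7% in WT ZNA to 35.7% in the ZBP1 library, and units of 3 bases are lowest in PS19 ZNA, at 15.0%.

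Alternating units held far more of the reads than of the names listed. For any group of units, the share of names gives no expected share of reads. A name pools all its genomic copies, the number of copies per unit was not available here, and no input library was analysed. The gap is therefore no measure of enrichment. The 557 alternating names took 38.1% of simple-repeat reads for ZBP1 (156 of 409, 33.4 to 43.0%), 30.3% for PS19 ZNA (306 of 1010, 27.5 to 33.2%) and 25.1% for WT ZNA (114 of 455, 21.1 to 29.3%). The share was therefore highest with the ZBP1 antibody and lowest in WT, with intervals that fall just short of touching between ZBP1 and PS19 ZNA and overlap between PS19 and WT ZNA. The PS19 ZNA share was 1.21-fold the WT ZNA share, with an interval (0.972 to 1.51) that includes no difference. That interval treats counts as Poisson and runs wide for shares this large, so it does not settle whether counting error covers the gap. Per reads outside rRNA the log2 ratio was 0.34 (0.024 to 0.66). The ZBP1 share was 1.26-fold the PS19 ZNA share (1.03 to 1.53), a log2 ratio of 0.33. The interval of that log2 ratio includes no difference without names under 10 reads (0.16, -0.15 to 0.46), per all reads (0.06, -0.23 to 0.34) and among dinucleotides alone (-0.022, -0.33 to 0.28). The intervals without names under 10 reads and among dinucleotides run wide for the same reason. Against the WT ZNA library the ZBP1 share was 1.52-fold (1.19 to 1.96), but there genotype and antibody both differ and cannot be told apart. These ratios share libraries and are not independent of each other.

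On other denominators the alternating units read differently. As CPM (counts scaled to a common total of reads), taken over reads outside rRNA, they had 2095 in the ZBP1 library, 992 in PS19 ZNA and 784 in WT ZNA, ratios of 2.11 (1.73 to 2.57) for ZBP1 over ZNA in PS19 and 1.26 (1.02 to 1.58) for PS19 over WT. As CPM of all reads they had 109, 105 and 35.2, ratios of 1.04 (0.855 to 1.27) and 2.97 (2.39 to 3.72). The share of rRNA, which differs between the libraries as given above, moves with these values, and its part in them was not tested.

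The pattern can be read in degrees, as the percent of steps between neighbouring bases that pass from purine to pyrimidine or back. Units with no such step, made of purines or of pyrimidines alone, took 14.9%, 19.3% and 19.1% of simple-repeat reads in the ZBP1, PS19 ZNA and WT ZNA libraries. Units with some such steps, under 50%, took 8.80%, 13.2% and 9.67%. Units from 50% to under 100% took 38.1%, 37.2% and 46.2%, so the class next to full alternation was highest in WT ZNA. The intervals of PS19 and WT ZNA do not overlap in that class. The ZBP1 library stood highest in the fully alternating class and lowest in the 2 classes with fewest steps. In those 2 classes the intervals of all 3 libraries overlap. As a ratio of shares, ZBP1 over ZNA in PS19 was 0.668 (0.449 to 0.972) for units with some steps, under 50%. For units with no such step it was 0.772 (0.570 to 1.03).

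**Figure D2:**
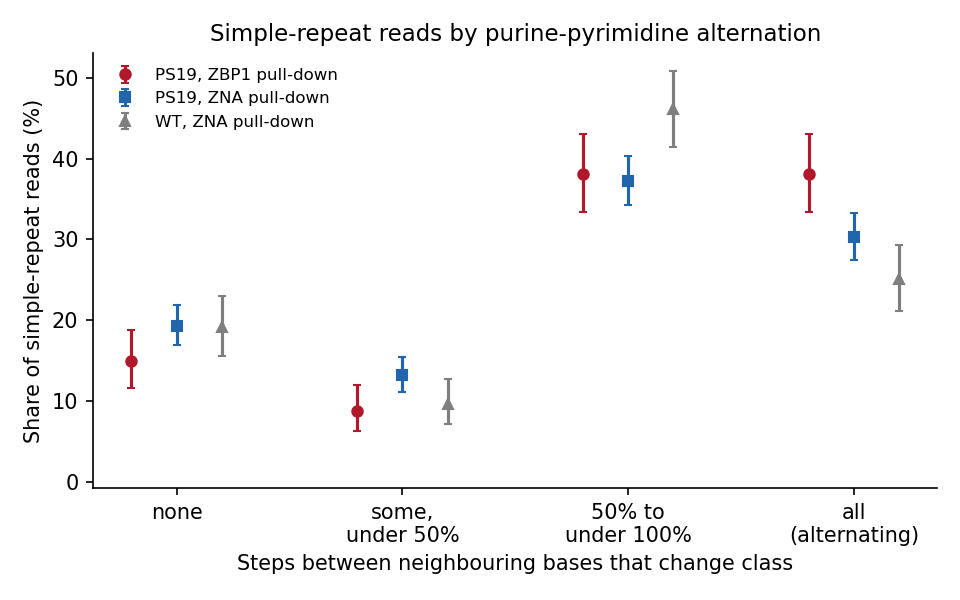
Share of simple-repeat reads (%) by how many steps between neighbouring bases of the repeated unit change between purine and pyrimidine, with 95% exact binomial intervals. The fully alternating class runs from 25.1% in WT ZNA to 38.1% in the ZBP1 library, and the class below it is highest in WT ZNA, at 46.2%.

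Nearly all alternating reads were CA/TG reads. Units that reduce to CA/TG in either phase or strand, 20 of the 557 names, held 153 of 156 alternating reads in the ZBP1 library (98.1%), 297 of 306 in PS19 ZNA (97.1%) and 108 of 114 in WT ZNA (94.7%). The 4 dinucleotide names alone held 138, 285 and 101. Of the 557 names 23 had reads. (CG)n and (GC)n, the units known to take the Z form most readily, had 0 reads in each library, as did (AT)n and (TA)n. None of the 6 alternating names made only of G and C, and none of the 10 made only of A and T, had a read. A count of 0 here says that no read was assigned to the name. Whether a step of the authors' alignment or counting left out reads of such units is not given in the sources used here, so the limits given above hold for assigned reads and not for the RNA itself. The absence of reads held for A and T units of any pattern, since 0 of 395 such names had a read.

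Alternating units that mix CA/TG with other steps were rare. The 8 such names with reads held 3, 9 and 6 reads in the ZBP1, PS19 ZNA and WT ZNA libraries. (ATGT)n had 0, 3 and 3 reads and (CATACA)n 0, 2 and 3, the most of these 8 names. Names with a CG or GC step in an alternating unit, 299 in the list, held 2, 1 and 0 reads. These levels lie below what a difference between libraries could be read from.

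Within the dinucleotides, the alternating share was high in each library. Alternating names took 94.5% of dinucleotide reads in the ZBP1 library (89.5 to 97.6%), 96.0% in PS19 ZNA (93.0 to 97.9%) and 93.5% in WT ZNA (87.1 to 97.4%). The ratio was 0.985 (0.798 to 1.21) for ZBP1 over ZNA in PS19 and 1.03 (0.815 to 1.301) for PS19 over WT. The ratio intervals treat counts as Poisson and run far too wide where a group is nearly its whole class. The binomial intervals of the shares overlap between all libraries. The rest were (CT)n, with 4, 4 and 5 reads, and (TC)n, with 4, 8 and 2; (AG)n and (GA)n, their opposite strand, had 0 in each library. The names (AA)n, (CC)n and (TT)n, also listed, had 0 reads. The alternating share of all simple repeats and the dinucleotide share are therefore almost the same measure here, and neither can be told apart from the share of CA/TG. At unit lengths of 4 and up, alternating names held 18, 21 and 13 reads, or 4.40% (2.63 to 6.87%), 2.08% (1.29 to 3.16%) and 2.86% (1.53 to 4.84%). There the ZBP1 share was 2.12-fold the PS19 ZNA share (1.06 to 4.17), and the PS19 ZNA share was 0.728 of the WT ZNA share (0.348 to 1.58), below it where the dinucleotides were above.

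The 4 CA/TG dinucleotide names did not move alike. (AC)n had 41 reads in the ZBP1 library, 71 in PS19 ZNA and 16 in WT ZNA, which is 10.02%, 7.03% and 3.52% of simple-repeat reads. (TG)n had 39, 55 and 21 reads, or 9.54%, 5.45% and 4.62%. Both were highest in the ZBP1 library and lowest in WT ZNA. (CA)n had 28, 91 and 27 reads, or 6.85%, 9.01% and 5.93%, highest in PS19 ZNA. (GT)n had 30, 68 and 37 reads, or 7.33%, 6.73% and 8.13%, highest in WT ZNA.

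As ratios of shares, (AC)n of PS19 ZNA was 2.0-fold that of WT ZNA (1.15 to 3.69), and the intervals of (CA)n (0.979 to 2.43), (TG)n (0.702 to 2.05) and (GT)n (0.547 to 1.27) include no difference. In the ZBP1 against the ZNA library of PS19, (TG)n was 1.75-fold higher (1.13 to 2.69), and the intervals of (AC)n (0.946 to 2.12), (GT)n (0.684 to 1.70) and (CA)n (0.479 to 1.17) include no difference. These 4 names are phases and strands of 1 sequence, so a read's name depends on how a tract was annotated. Pooled by written strand over all unit lengths, CA or AC took 48.4% of the CA/TG reads in the ZBP1 library (40.2 to 56.6%), 56.2% in PS19 ZNA (50.4 to 62.0%) and 45.4% in WT ZNA (35.8 to 55.2%). The intervals of the ZBP1 and the WT ZNA library include an even split, and that of PS19 ZNA lies just above it. The CA or AC share of all simple-repeat reads was 1.54-fold higher in PS19 than in WT ZNA (1.11 to 2.16), and the TG or GT share stood at 0.993 of it (0.724 to 1.37). Whether counting used the strand of a read is not given in the sources used here, so these shares give no strand of the RNA.

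**Figure D3:**
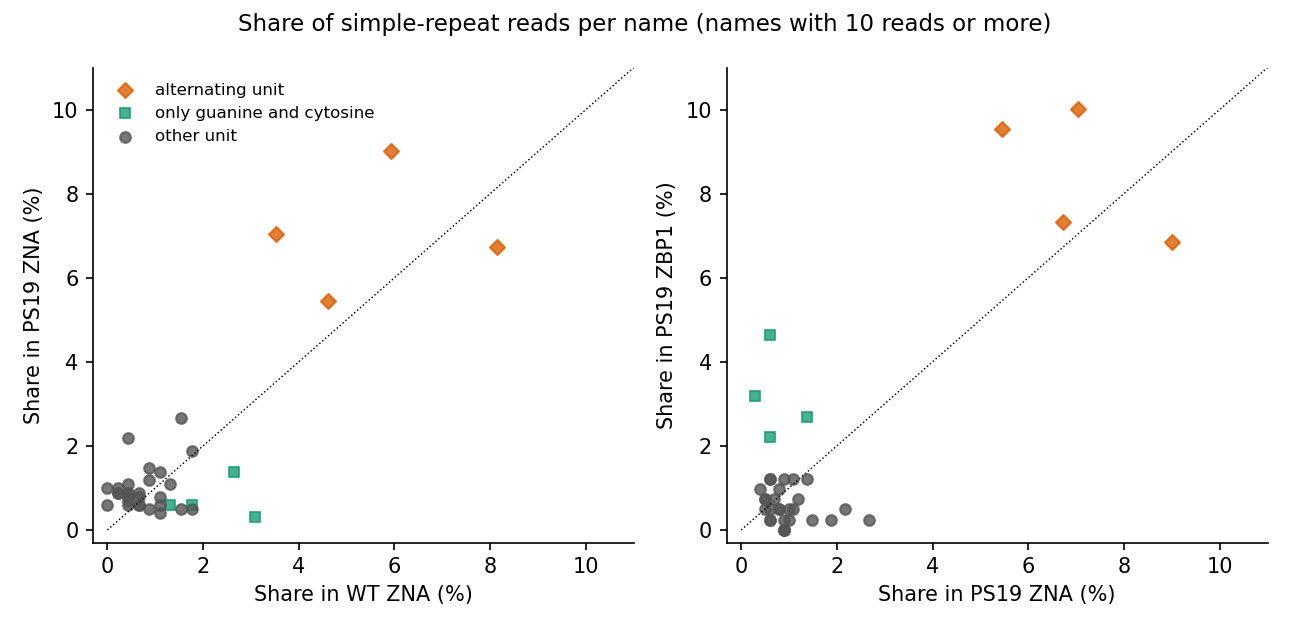
Each point is 1 of the 36 simple-repeat names with 10 or more reads over the 3 libraries, placed by its share of simple-repeat reads (%) in 2 libraries; the dotted line marks equal shares. The 4 alternating names, with shares from 3.52% to 10.02%, are the 4 highest in each library, and the 4 names made only of guanine and cytosine lie above the line in the right panel.

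Base composition, a class chosen after its values were seen, also set the libraries apart. Units made only of G and C, 216 names of which 16 had reads, took 14.7% of simple-repeat reads in the ZBP1 library (60 reads, 11.4 to 18.5%), 4.26% in PS19 ZNA (43 reads, 3.10 to 5.69%) and 10.5% in WT ZNA (48 reads, 7.88 to 13.7%). The PS19 ZNA library lies below both others. The ZBP1 share was 3.45-fold the PS19 ZNA share (2.29 to 5.22), and the PS19 ZNA share was 0.404 of the WT ZNA share (0.261 to 0.622). As CPM of all reads the values were 42.1, 14.7 and 14.8, so that on this scale the ZNA libraries stood at a ratio of 0.993 (0.642 to 1.53) and ZBP1 over ZNA in PS19 at 2.86 (1.90 to 4.33). All 60, 43 and 48 of these reads fell on units that do not alternate.

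The G and C units were chiefly the 6 phases and strands of the CCG trinucleotide, a unit found near the starts of many genes. These 6 names held 58, 35 and 46 reads, or 63.0% (52.3 to 72.9%), 23.0% (16.6 to 30.5%) and 45.1% (35.2 to 55.3%) of trinucleotide reads. (CGC)n had 19 reads in the ZBP1 library, 6 in PS19 ZNA and 8 in WT ZNA, and (CGG)n had 13, 3 and 14. (GGC)n had 11, 14 and 12 reads and (GCC)n 9, 6 and 6, and (GCG)n and (CCG)n had 4, 4 and 1, and 2, 2 and 5. As shares of simple-repeat reads, each of the 6 but (GCG)n was lowest in PS19 ZNA. The PS19 ratios of these shares, ZBP1 to ZNA, were 7.82 for (CGC)n (3.0 to 23.9) and 10.7 for (CGG)n (2.94 to 58.5), and (CGG)n in PS19 ZNA was at 0.0965 of its WT ZNA share (0.0178 to 0.346) on 3 and 14 reads. Without the CCG names, trinucleotides took 8.31%, 11.6% and 12.3% of simple-repeat reads, and the higher trinucleotide share of the ZBP1 library over the PS19 ZNA library was not seen in them (ratio 0.718, 0.475 to 1.06). Their PS19 ZNA share stood at 0.941 of the WT ZNA share (0.679 to 1.32), so the lower trinucleotide share of PS19 ZNA also lay mainly in the CCG names.

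At 50% G and C, where CA/TG lies, units that alternate and units that do not can be set side by side. The alternating units of this class took 37.4%, 29.5% and 23.7% of simple-repeat reads in the ZBP1, PS19 ZNA and WT ZNA libraries. The others took 16.9%, 22.6% and 20.7%. Within the class, the alternating share was 68.9% (62.4 to 74.9%), 56.7% (52.3 to 60.9%) and 53.5% (46.3 to 60.5%). The ratio of ZBP1 to ZNA in PS19 was 1.22 (0.994 to 1.48) and that of PS19 to WT 1.06 (0.848 to 1.33). Both intervals include no difference, but they treat counts as Poisson and run wide where the group is most of the class. The binomial intervals of the ZBP1 and PS19 ZNA shares do not overlap, and those of PS19 and WT ZNA do. Units with some G or C but under 50% took 13.7%, 23.7% and 21.3%, lowest in the ZBP1 library, and units between 50% and 100% took 71, 202 and 108 reads, or 17.4% of the ZBP1 and 23.7% of the WT ZNA reads.

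**Figure D4:**
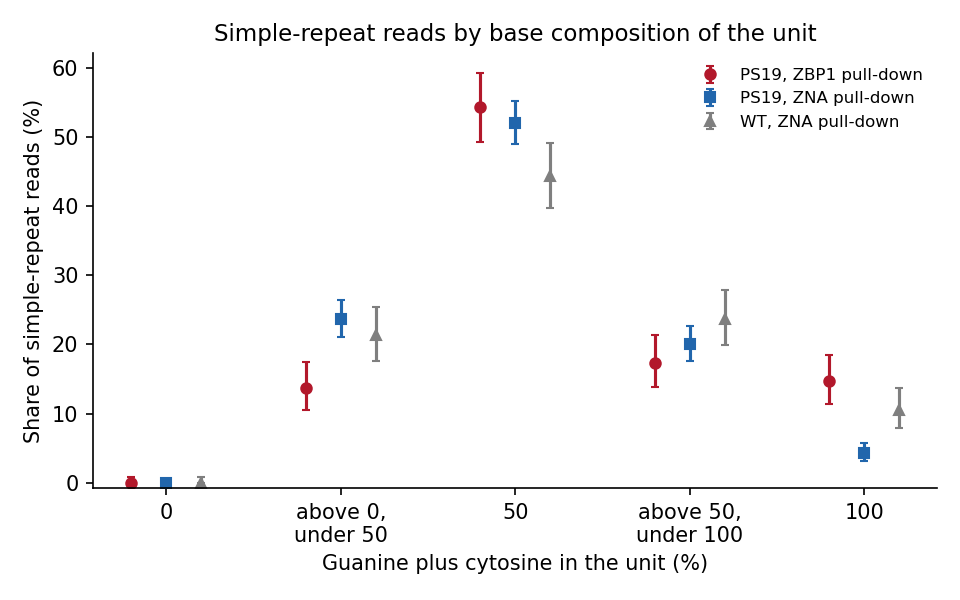
Share of simple-repeat reads (%) by the percent of guanine plus cytosine in the repeated unit, with 95% exact binomial intervals. Units made only of guanine and cytosine stand at 14.7% in the ZBP1 library, 10.5% in WT ZNA and 4.26% in PS19 ZNA, and units with none stand at 0 in each.

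Non-alternating units of 4 and 6 bases held lower shares in the ZBP1 library. Tetranucleotides that do not alternate took 12.7% there (52 reads, 9.64 to 16.3%), 22.4% in PS19 ZNA (226 reads, 19.8 to 25.1%) and in WT ZNA 91 of 455 reads (16.4 to 24.0%), a ratio of 0.568 (0.412 to 0.771) for ZBP1 over ZNA in PS19. The ATCC family, 14 names in any phase, strand or multiple, to which (CCAT)n and (GGAT)n belong, held 18, 82 and 26 reads, and the AGAT family of (TAGA)n held 6, 45 and 20. Hexanucleotides that do not alternate took 12.0%, 18.9% and 18.9%, led by (GAGGCA)n with 1, 27 and 7 reads. The leading pentanucleotides, (GCTGT)n with 5, 6 and 3 reads and (GGTTT)n with 2, 5 and 7, and the leading longer unit, (CTCTGCCT)n with 0, 6 and 3, had too few reads to set the libraries apart.

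**Figure D5:**
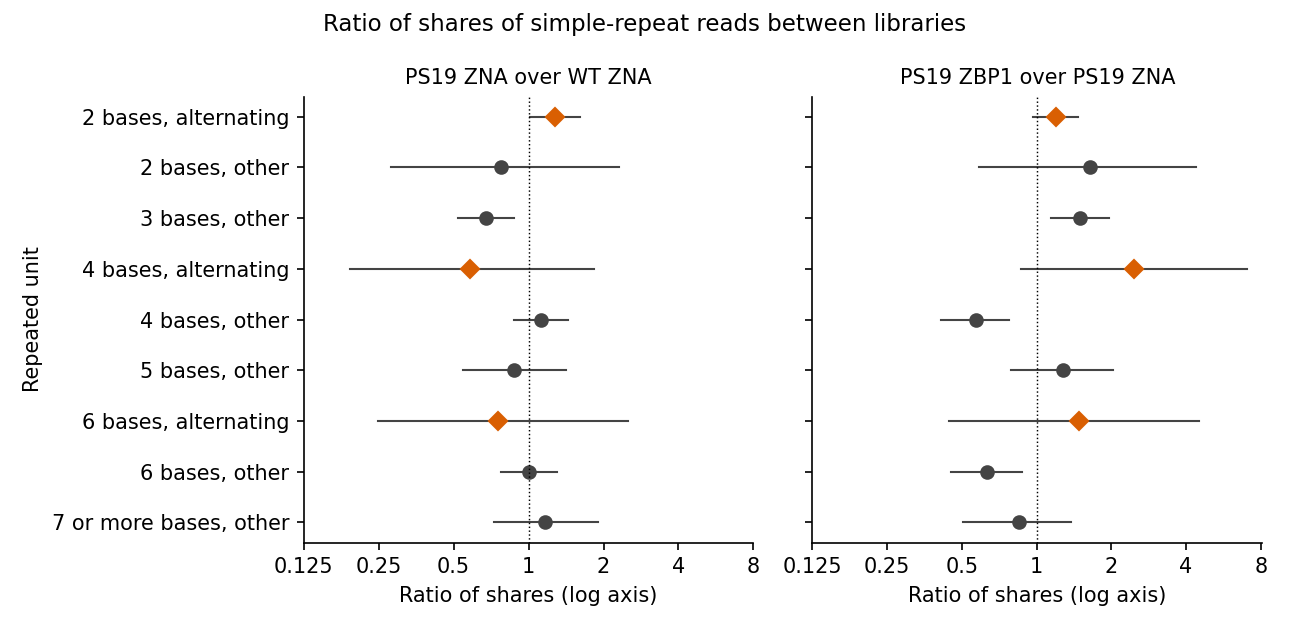
Ratio of shares of simple-repeat reads between 2 libraries (log axis) for each unit length, alternating units as diamonds and others as circles; lines are 95% exact conditional intervals from counting error and the dotted line marks a ratio of 1. Alternating dinucleotides lie at 1.27 and 1.20, and non-alternating tetranucleotides at 0.568 in the right panel. The 4 mononucleotide names (no reads) and the alternating units of 7 or more bases (3, 2 and 0 reads) are left out.

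Single names were then set against all repeat names, on CPM of all reads, as log2 ratios with a pseudocount of 1 CPM. Names entered with a mean of at least 1 CPM and at least 20 reads over the 2 libraries, and 2-fold marks a size, since there is no test. In PS19 ZNA over WT ZNA, 8 of the 17181 simple-repeat names passed, holding 36.3% and 28.6% of the simple-repeat reads of these libraries. Of the 8, 6 were at least 2-fold higher in PS19, where 530 of all 713 names (74.3%) were, and 0 at least 2-fold lower (0.421% of all names). Their median log2 ratio was 1.55, against 1.24 over all 713 names. The share of simple-repeat names past 2-fold was therefore near that of all names. Per reads outside rRNA, 2 of the 8 were at least 2-fold higher, (AC)n and (CCAT)n, against 4.64% of 711 names, and 0 lower (2.95% of all). With 22 PS19 ZNA and 2 WT ZNA reads, (CCAT)n passed the limit of 20 reads almost wholly on PS19 ZNA reads. The filter thus favoured the higher direction for it.

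The highest ratio in this comparison was that of (CCAT)n, with 22 and 2 reads, or 7.54 and 0.618 CPM, a log2 ratio of 2.40. It was followed by (AC)n at 2.09 (24.3 and 4.95 CPM) and (CA)n at 1.78 (31.2 and 8.35 CPM). The lowest were (GGC)n at 0.30 (14 and 12 reads), (GT)n at 0.97 (68 and 37 reads) and (TAGA)n at 1.11 (19 and 8 reads). Per reads outside rRNA the log2 ratios of (GGC)n and (GT)n were below 0, at -0.85 and -0.21. Alternating names thus stood both near the top and near the bottom of the 8.

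In PS19 ZBP1 over PS19 ZNA, 9 simple-repeat names passed, with 42.1% and 36.9% of the simple-repeat reads. One, (CGC)n, was at least 2-fold higher in the ZBP1 library, where 0.293% of 682 names were, and 3 were at least 2-fold lower, where 50.1% were. The 3 lower names passed the limit of 20 reads almost wholly on PS19 ZNA reads, and (CGC)n mostly on ZBP1 reads. The filter thus favoured these directions for them. The median log2 ratio was -0.14 for the 9 and -1.002 for all 682 names. The median of the 9 was thus above that of all names, while (GAGGCA)n at -2.59, (TAGA)n at -2.14 and (CCAT)n at -1.83 were below it. Per reads outside rRNA, 4 were at least 2-fold higher, against 9.12% of 680 names, and 3 lower, against 9.41%; the medians were 0.87 and -0.05.

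(CGC)n had 13.3 CPM in the ZBP1 library and 2.06 CPM in the ZNA library, a log2 ratio of 2.23. It was followed by (GGC)n at 0.59 (7.72 and 4.80 CPM) and (TG)n at 0.52 (27.4 and 18.8 CPM). The lowest were (GAGGCA)n at -2.59 (1 and 27 reads), (TAGA)n at -2.14 (1 and 19 reads) and (CCAT)n at -1.83 (2 and 22 reads). With 1 or 2 reads on one side their ratios have wide exact intervals: 2.17-fold to 540-fold lower, 1.47-fold to 386-fold lower and 1.32-fold to 47.1-fold lower. The 4 CA/TG names ran from -0.64 for (CA)n to 0.52 for (TG)n, all above the median of all names.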

How the data were processed

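RNA immunoprecipitation libraries from hippocampus were compared, 1 per group, with groups taken from the sample titles. Each deposited file pairs a repeat name with its raw read count, as whole numbers, and the authors applied no scaling that the file headers name. Per the submitters' processing notes, Trim Galore 0.6.5, STAR 2.5.3a, featureCounts 2.0.4 and build mm39 were used. The repeat annotation, the use of strand and the handling of reads with several alignments are not given in the sources used here, and such reads are common in simple repeats. A name pools all its genomic copies, so no position can be given. No entry lacked a name.

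Here counts were pooled per group of names, and shares carry 95% exact (Clopper-Pearson) binomial intervals. Ratios of shares carry exact conditional intervals that treat counts as Poisson. They run wide where a group holds a large part of its denominator, so one that includes no difference there does not settle the matter. Reads carry no molecular identifiers, so they are not independent molecules. The members and lists were chosen with earlier results of these data known. Names printed follow a rule: all mononucleotide and dinucleotide names, the 10 with most reads, alternating names with at least 10 reads, the leading name of each length, and the 3 highest and 3 lowest ratios per comparison; the rarer members of the CCG family, and (GGAT)n, (ATGT)n and (CATACA)n, were added after their values were seen, as were the classes by base composition and by steps, and the families. Low-complexity names without a unit (GA-rich and the like) are not members. The code for the 2-fold counts was checked on simulated counts. Alternatives covered the definition of alternation, denominators, filters, pseudocounts, limits and edgeR 4.0.16 TMM scaling. Scripts ran in Python 3.11.15 (scipy 1.17.1) and R 4.3.3.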

Additional observations from a re-analysis of the deposited data

How the results depend on the processing

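Of 112 recomputed values, 65 stayed within the counting interval of the reported value or, for a count, within 1.5 times. Some of these crossed 0 inside a wide interval. For PS19 over WT ZNA, the log2 ratio of pentanucleotides went from -0.20 to 0.096 without their leading name. That of hexanucleotides went from -0.023 to 0.041 per reads outside rRNA. A further 44 moved outside the interval, and 3 moved outside it with a change of sign. Those that moved include shares taken over another denominator, which are other quantities and had to move, so the tally is no measure of robustness. With 1 library per group no library was left out, and no paired analysis was possible because each group has a single library. Depth limits every single name, most of all in the ZBP1 library with 409 simple-repeat reads.

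For ZBP1, PS19 ZNA and WT ZNA in this order, the alternating share was 94.5%, 96.0% and 93.5% of dinucleotide reads, 53.9%, 48.3% and 42.4% without names under 10 reads, 0.209%, 0.0992% and 0.0784% of reads outside rRNA, and 0.0109%, 0.0105% and 0.00352% of all reads. Counting alternation within 1 copy of the unit gave 45.7% in the ZBP1 and 30.8% in the WT ZNA library, since that admits (CGC)n and other odd units. Without (CA)n the PS19 ZNA and WT ZNA shares were 23.4% and 20.3%, and with low-complexity names in the denominator the PS19 ZNA share was 25.6%. The log2 ratio of the alternating share for PS19 ZNA over WT ZNA was 1.57 on all reads, against 0.27. For ZBP1 over ZNA it was 1.08 on reads outside rRNA, against 0.33, and it changed sign among dinucleotides alone (-0.022). The even lengths alone, and the shares without units of only G and C, both chosen after seeing the data, kept both directions but changed the sizes. For PS19 over WT ZNA the log2 ratio fell to 0.12 (-0.20 to 0.44) and 0.18 (-0.14 to 0.50). For ZBP1 over ZNA it rose to 0.50 in both (0.21 to 0.78 in each).

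Per reads outside rRNA, the log2 ratios of ZBP1 over ZNA for units of 2, 3 and 5 bases were 1.03, 1.33 and 1.10 and that of longer units 0.64, and those of 4 and 6 bases changed sign, to 0.11 and 0.18; the higher simple-repeat share of that library on this scale adds the same amount to each. With low-complexity names added, the simple-repeat share was 0.0316%, 0.0410% and 0.0165% of all reads and 0.606%, 0.388% and 0.368% of reads outside rRNA.

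Shares over all names are given above for CPM of all reads and of reads outside rRNA alone, so counts under other settings lack a background. Names at least 2-fold higher in PS19 than in WT (6 of 8 compared) numbered 2 of 8 per reads outside rRNA and 1 of 8 under TMM. They numbered 1 of 8 per simple-repeat reads, 3 of 4 at a mean of at least 10 CPM and 2 of 8 at 4-fold. With no filter they numbered 46 of 295, with 3 lower names in place of 0. Names higher in ZBP1 than in ZNA (1 of 9 compared) numbered 4 of 9 per reads outside rRNA and 4 of 9 under TMM. They numbered 17 of 309 with no filter, 0 of 4 at a mean of at least 10 CPM and 2 of 9 at 1.5-fold. Names lower there (3 of 9) numbered 41 of 309 with no filter, 0 of 4 at a mean of at least 10 CPM and 5 of 13 with phases and strands of a unit pooled. Beyond the fewer or more names compared, the cause was not tested.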
